A study of Mus musculus with 8 samples.

Results

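The genes described here are 9 components of the Nodal pathway: the ligands Nodal and Gdf3, the co-receptors Tdgf1 and Cfc1, the secreted inhibitors Lefty1, Lefty2 and Cer1, the transcription factor Foxh1 and the corepressor gene Skil. They were taken by name from the platform's gene symbols, and all 9 were found among the 19935 genes measured, each with a single probe set that carries no other symbol. Nodal is a secreted ligand of the TGF-beta family that acts through activin receptors and, with an EGF-CFC co-receptor on the cell surface, leads to phosphorylation of Smad2 and Smad3. These join Smad4 and, with Foxh1, drive target genes, among them Nodal itself and its inhibitors, so that the pathway holds both a positive and a negative loop. In the early embryo it patterns the epiblast and induces mesendoderm, and mouse embryonic stem cells express several of its components.

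The cells were R1, a mouse embryonic stem cell line grown under conditions that keep it pluripotent, although the sample titles use the word differentiation. They were collected 48 hours after transfection with siRNA (small interfering RNA, which directs cleavage of a matching transcript). The 3 groups were a control siRNA (3 arrays), CnAb1 (1), called siRNA 1 here (3 arrays), and CnAb1 (2), called siRNA 2 (2 arrays). Both target CnAb1, a splice variant of the calcineurin subunit gene Ppp3cb, so the comparisons ask how the pathway's transcripts read once it is targeted and if the siRNAs give like values. All groups were transfected, and untransfected cells were not analysed here.

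Several members are known targets of the pathway itself, so promoter sequence is shown for some of them; RefSeq's promoter table (GRCm38.p6) held an entry for 4 of the 9. The 250 bases before the annotated start are given, 5′ to 3′ on the gene's strand, for Cer1 and Nodal, which differed most from control for the average of both siRNAs, and for Tdgf1, which held both motifs searched. Capitals mark CAGAC, a letter sequence of Smad binding (GTCTG on the other strand), and AATNNACA (TGTNNATT on the other strand). The latter is a loose form of a Foxh1 element, with any base at N, so a match need not be that element.
Cer1: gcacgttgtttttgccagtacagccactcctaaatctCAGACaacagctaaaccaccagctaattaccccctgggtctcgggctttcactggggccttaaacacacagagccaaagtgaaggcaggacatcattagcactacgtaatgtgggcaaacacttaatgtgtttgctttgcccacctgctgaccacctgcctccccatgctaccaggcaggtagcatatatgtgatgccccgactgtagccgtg
Nodal: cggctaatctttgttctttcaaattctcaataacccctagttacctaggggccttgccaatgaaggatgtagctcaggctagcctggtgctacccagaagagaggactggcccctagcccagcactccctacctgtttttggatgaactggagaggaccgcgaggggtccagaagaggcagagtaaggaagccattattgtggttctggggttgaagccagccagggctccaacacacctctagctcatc
Tdgf1: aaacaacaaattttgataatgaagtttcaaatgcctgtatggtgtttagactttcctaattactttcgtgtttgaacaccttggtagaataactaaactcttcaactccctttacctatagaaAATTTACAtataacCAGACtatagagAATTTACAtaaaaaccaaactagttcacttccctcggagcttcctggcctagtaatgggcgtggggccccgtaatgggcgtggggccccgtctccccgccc
The Cer1 stretch is chr4:82885152-82885401 on the minus strand, the Nodal stretch is chr10:61417722-61417971 on the plus strand and the Tdgf1 stretch is chr9:110946159-110946408 on the minus strand. Cer1 held 1 match to CAGAC, 213 to 209 bases before the start, and 0 to AATNNACA. Tdgf1 held 1 match to CAGAC at 113 to 109 bases, lying between a pair of matches to AATNNACA at 127 to 120 and 101 to 94 bases. Cfc1, the other member with an entry, held 1 match to GTCTG at 110 to 106 bases, and Nodal held neither sequence in this window. No marked stretch overlapped another. Of 32851 promoter windows of the same length, 42.2% held CAGAC on either strand and 10.9% held AATNNACA, so a match to the former is common. A match describes letters, not a binding site.

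The arrays were alike, with correlations between pairs of arrays of 0.9949 to 0.9989 over all genes and array medians of 8.12 to 8.20 on the log2 scale. The 10 stem cell markers looked at (Pou5f1, Nanog, Sox2 and others) averaged 12.55 to 12.67 on every array, and none lay below the arrays' lower quartiles, which ran from 6.81 to 6.98. The targeted gene, Ppp3cb, had a mean of 10.63 ± 0.07 (SD, n = 3) on the control arrays. It read 10.52, 10.68 and 11.09 under siRNA 1, and 11.07 and 11.16 under siRNA 2, so neither group's mean was lower. The siRNA 2 mean was 0.49 higher (SE 0.14, limma adjusted p = 0.794, unadjusted p = 0.0057). The Ppp3cb probe set is annotated to the gene, and whether its probes read the CnAb1 variant is unknown here, so the knockdown could not be checked. The labels do not say that replicates were separate cultures, so p-values measure the spread between these arrays, and that spread may be a technical one. Precision is limited by how few arrays there are.

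With the siRNA average set against control, none of the 9 members passed an adjusted p under 0.05 (limma, Benjamini-Hochberg adjustment over all 19935 genes), and neither did any other gene (0% called, smallest adjusted p = 0.508). Without adjustment, 1257 genes (6.31% of those tested) had a p under 0.05, among them the members Cer1 and Nodal, both with lower means. Cer1 differed by -0.32 (SE 0.09) and Nodal by -0.12 (SE 0.05) on the log2 scale, and the other 7 members lay between -0.11 and 0.09. Of the 9 members 7 had a mean below control, with a median difference of -0.075, while 43.9% of all genes lay below control and their median was 0.011. The 95% interval lay within 1.5-fold in either direction for all 9 members.

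**Figure D1:**
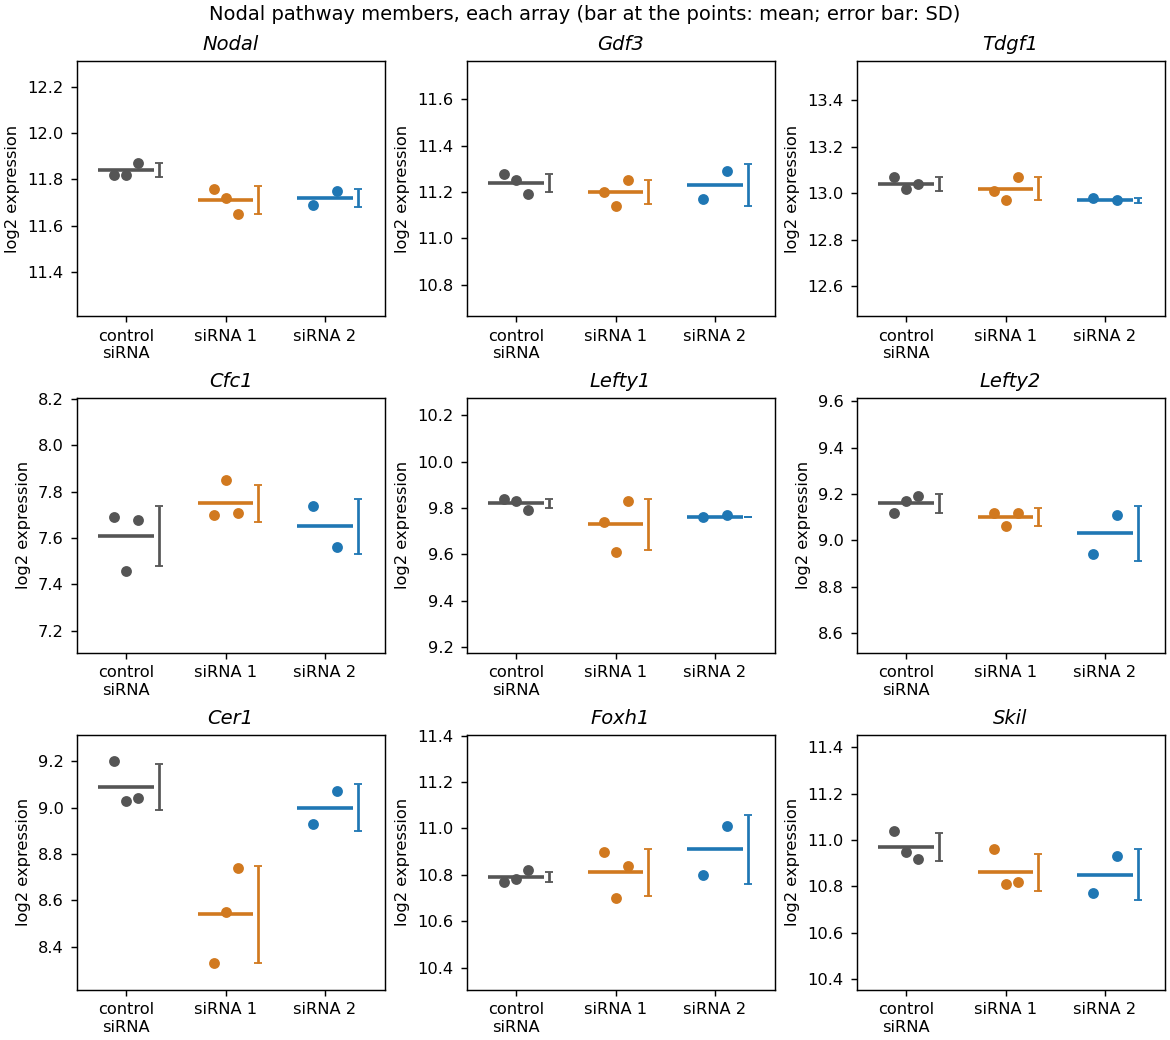
Log2 expression (vertical axes, of equal span in every panel) of the 9 members on each array of the 3 groups (horizontal axes). Points are arrays, horizontal bars group means and error bars the SD. Cer1 on the siRNA 1 arrays, at 8.33 to 8.74, lies apart from its control arrays at 9.03 to 9.20, and the groups of the other members lie close together.

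Among the ligands, Nodal read 11.82, 11.82 and 11.87 on the control arrays, 11.76, 11.72 and 11.65 on those of siRNA 1 and 11.69 and 11.75 on those of siRNA 2. All 5 siRNA arrays thus lay below all 3 controls, by a small margin, and the siRNA groups overlapped each other. Such a separation on the lower side was seen for 2.25% of all genes. The difference was -0.13 (SE 0.05, limma adjusted p = 0.87, unadjusted p = 0.0382) with siRNA 1 and -0.11 (SE 0.06, limma adjusted p = 0.83) with siRNA 2. In fold terms Nodal was 1.09-fold lower on average with siRNA 1, and its 95% interval ran from -0.24 to -0.01.

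Gdf3, a ligand of the same family that can signal through the same co-receptor and is abundant in stem cells, read 11.28, 11.25 and 11.19 with control siRNA. It read 11.20, 11.14 and 11.25 with siRNA 1 and 11.17 and 11.29 with siRNA 2. The 3 groups overlapped, and the differences from control of -0.04 (SE 0.06) and -0.01 (SE 0.06) were within the spread between arrays.

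Tdgf1 (Cripto), the EGF-CFC co-receptor of early embryonic cells, read 13.07, 13.02 and 13.04 on the control arrays. The siRNA 1 arrays read 13.01, 12.97 and 13.07, across the control range, and the siRNA 2 arrays 12.98 and 12.97, just below it. Its differences were -0.02 (SE 0.05) and -0.07 (SE 0.06), and its SD over the 8 arrays, 0.043, was smaller than that of the median gene, 0.089.

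Cfc1 (Cryptic), the second EGF-CFC gene, which acts in left-right patterning, had a higher mean in both siRNA groups. It read 7.69, 7.46 and 7.68 with control siRNA, 7.70, 7.85 and 7.71 with siRNA 1, and 7.74 and 7.56 with siRNA 2. The siRNA 1 arrays lay just above all controls, as they did for 6.21% of genes, and control replicate 2 was the lowest of the 8. The differences were 0.14 (SE 0.08, limma adjusted p = 0.87) and 0.04 (SE 0.09, limma adjusted p = 0.946), and without control replicate 2 they were 0.071 and -0.029.

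The Lefty proteins are secreted antagonists that bind Nodal and its co-receptors, and their genes are direct targets of the pathway. Lefty1 and Lefty2 are near copies of each other, so whether each probe set reads its gene alone is uncertain here. Lefty1 read 9.84, 9.83 and 9.79 with control siRNA, 9.74, 9.61 and 9.83 with siRNA 1, and 9.76 and 9.77 with siRNA 2. One siRNA 1 array thus fell within the control range, while both siRNA 2 arrays lay just below it. The differences were -0.09 (SE 0.06, limma adjusted p = 0.87) and -0.06 (SE 0.07, limma adjusted p = 0.909). The siRNA 1 value was -0.035 without siRNA 1 replicate 2 and -0.142 without replicate 3.

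Lefty2 read 9.12, 9.17 and 9.19 on the control arrays, 9.12, 9.06 and 9.12 with siRNA 1, and 8.94 and 9.11 with siRNA 2. All siRNA arrays lay below all controls, as for 2.25% of genes, though the nearest values are both 9.12 and part only beyond the second decimal. Its differences were -0.06 (SE 0.06, limma adjusted p = 0.88) and -0.13 (SE 0.07, limma adjusted p = 0.812), the latter with a 95% interval of -0.28 to 0.01. That siRNA 2 value was -0.049 without siRNA 2 replicate 1 and -0.219 without replicate 2.

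Cer1 (Cerberus-like), a secreted antagonist of Nodal and BMP made by endoderm of the early embryo, gave the largest difference of the 9. It read 9.20, 9.03 and 9.04 with control siRNA, 8.33, 8.55 and 8.74 with siRNA 1, and 8.93 and 9.07 with siRNA 2. Every siRNA 1 array lay below every control, as for 4.56% of genes, and the siRNA 2 arrays lay around the lower controls. The siRNA 1 mean differed from control by -0.55 (SE 0.10, 95% interval -0.77 to -0.32), which is 1.46-fold lower. It did not pass over all genes (limma adjusted p = 0.805, unadjusted p = 0.000319). With siRNA 2 the difference was -0.09 (SE 0.11, limma adjusted p = 0.916). In a bulk sample, fewer Cer1-expressing cells and less Cer1 RNA per cell cannot be told apart.

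The call for siRNA 1 depended on how the arrays were weighted. With limma's array weights, which count an array less the farther it lies from its group, both Cer1 (-0.374, adjusted p = 0.0259) and Nodal (-0.178, adjusted p = 0.0355) passed, among 1436 genes in all. Over all fits these adjusted p-values ranged from 0.0259 to 1 and from 0.0355 to 1. The weights were 3.56 for siRNA 1 replicate 3 against 0.31 and 0.41 for replicates 1 and 2, so that fit reads siRNA 1 mostly from 1 array, the one where Cer1 was nearest to control and Nodal farthest from it.

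Foxh1, the forkhead factor that brings Smad2 and Smad4 to Nodal target genes, read 10.77, 10.78 and 10.82 with control siRNA. The siRNA 1 arrays spread on both sides of that range at 10.90, 10.70 and 10.84, and the siRNA 2 arrays read 10.80 and 11.01. The differences of 0.02 (SE 0.07) and 0.12 (SE 0.08, limma adjusted p = 0.858) did not exceed the spread, and the second was 0.013 without siRNA 2 replicate 2.

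Skil (SnoN), a corepressor that binds Smads and is itself induced by the pathway, read 11.04, 10.95 and 10.92 with control siRNA, 10.96, 10.81 and 10.82 with siRNA 1, and 10.77 and 10.93 with siRNA 2. In each siRNA group 1 array lay inside the control range and the rest below it. The means differed from control by -0.11 (SE 0.07) in both groups, and limma's adjusted p was 0.87 and 0.857. The siRNA 2 value was -0.035 without siRNA 2 replicate 1 and -0.195 without replicate 2.

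**Figure D2:**
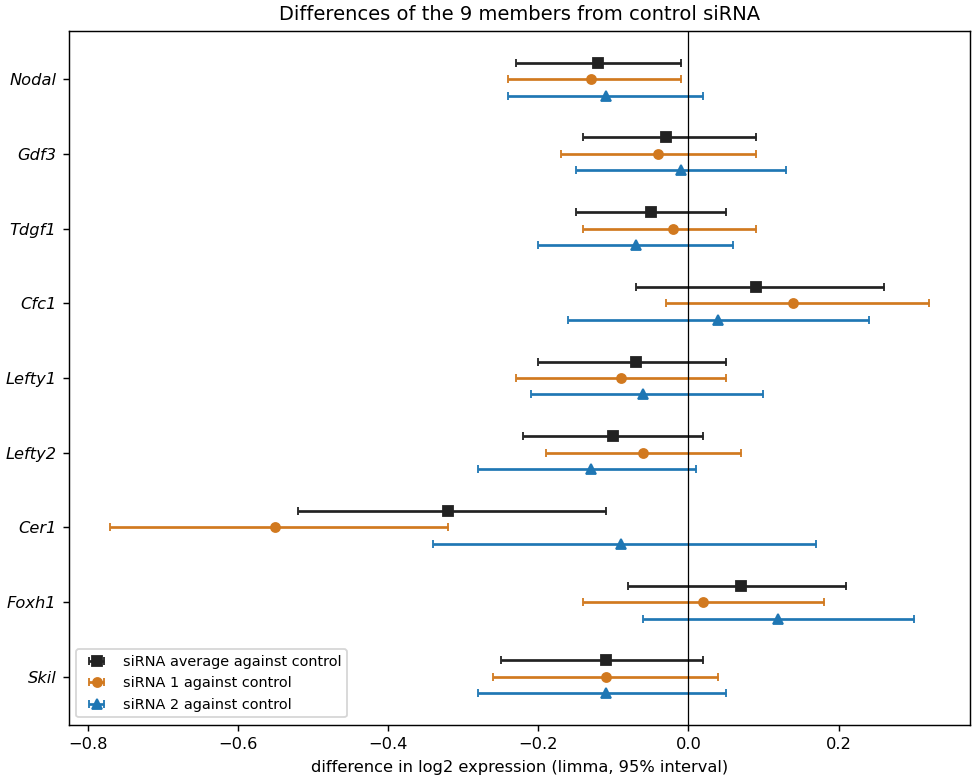
Differences of the 9 members (vertical axis) from control siRNA in log2 expression (horizontal axis), as limma's estimate with its 95% interval, for the average of both siRNAs and for each siRNA. The intervals for Cer1 with siRNA 1 (-0.77 to -0.32) and for Nodal with siRNA 1 (-0.24 to -0.01) do not reach 0, nor do those of the siRNA average (-0.52 to -0.11 and -0.23 to -0.01), and no difference passed after adjustment over all genes.

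For siRNA 1 alone 7 of the 9 means lay below control, where 41.4% of all genes did, with a median of -0.062 against 0.016 over all genes. Without adjustment 1063 genes (5.33%) had a p under 0.05, Cer1 and Nodal among them, and 0 genes (0%) were called after it. For siRNA 2 the count of lower means was also 7, against 47.1% of all genes, with a median of -0.071 against 0.006. No gene was called (0%), and 0 members were among the 1211 genes (6.07%) with an unadjusted p under 0.05. Groups did not overlap on the lower side for 4 members with siRNA 2 (Nodal, Tdgf1, Lefty1 and Lefty2), where 15.9% of all genes did the same with so few arrays. Both siRNAs share the control arrays, so like values in the 2 comparisons are not separate evidence.

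Array by array, 7 or 8 of the 9 members lay below their control mean on 4 of the 5 siRNA arrays. On siRNA 1 replicate 1, 7 lay below it, with a median deviation of -0.039. On siRNA 1 replicate 2, 8 lay below it, with a median of -0.104. On siRNA 1 replicate 3, 4 lay below it and 5 above, with a median of 0.008, and Cer1 was again the lowest at -0.35. Both siRNA 2 arrays had 7 members below, with medians of -0.072 and -0.044. Median deviations over all genes were 0.001 to 0.023 on the siRNA arrays. Cfc1 had the highest deviation on siRNA 1 replicates 2 and 3 and on siRNA 2 replicate 1, and Foxh1 on siRNA 1 replicate 1 and siRNA 2 replicate 2.

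**Figure D3:**
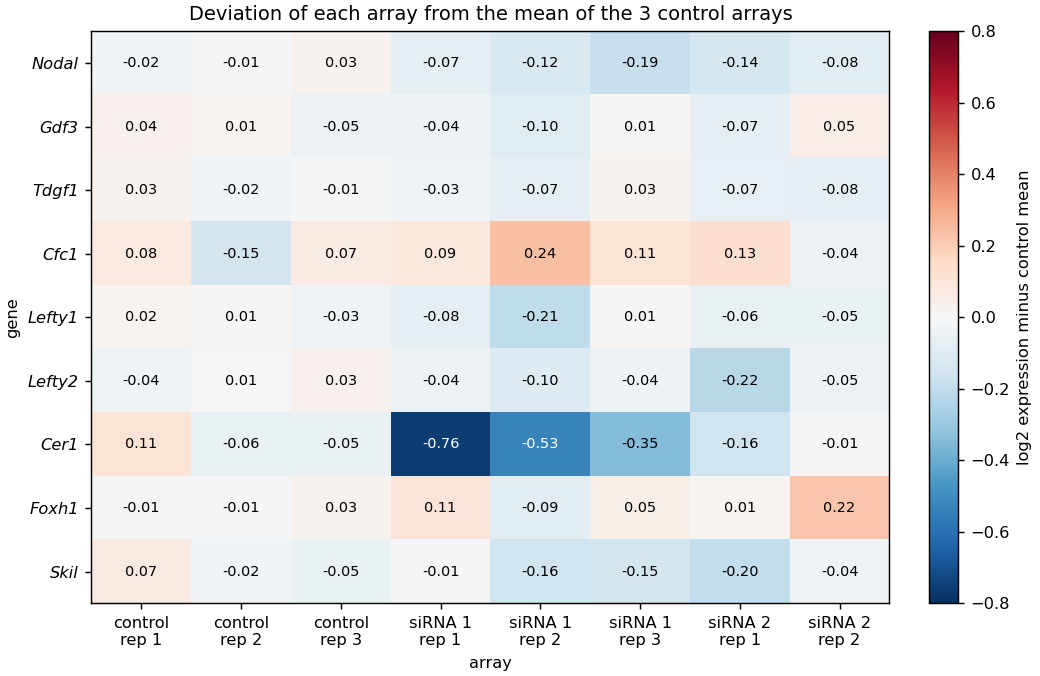
Log2 expression of each member (rows) on each array (columns) minus the mean of its 3 control arrays, printed in each cell and coloured from blue (below) to red (above). Cer1 reads -0.76, -0.53 and -0.35 on the siRNA 1 arrays, and Nodal is below 0 on all 5 siRNA arrays.

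The siRNAs were then set against each other. Cer1 read 0.46 higher on average with siRNA 2 than with siRNA 1 (SE 0.11, 95% interval 0.21 to 0.71), with both siRNA 2 arrays above all siRNA 1 arrays, as for 5.54% of genes. After adjustment over all genes the difference did not pass (limma adjusted p = 1, unadjusted p = 0.00227), and without siRNA 1 replicate 1 it was 0.355. The other 8 members differed by -0.10 to 0.10 between the siRNAs, and 0 of the 9 were called (0% of all genes, with 893 genes, 4.48%, at an unadjusted p under 0.05). For Nodal the interval of this difference was -0.12 to 0.15, and for Lefty1 -0.12 to 0.19.

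Other genes of the pathway were looked at through 6 lists, of which 48 genes were measured. None was called in any of the 4 comparisons. Between control and the siRNA average 26 lay below control and 22 above, with a median of -0.011 against 0.011 over all genes. One of them, the type I receptor gene Tgfbr1, had an unadjusted p under 0.05.

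Of the 6 other ligands 4 lay above control on average. Inhba, which encodes the activin A subunit, read 9.06, 9.09 and 9.28 with control siRNA, 9.85, 9.15 and 9.34 with siRNA 1, and 9.36 and 9.46 with siRNA 2. Its highest value was on siRNA 1 replicate 1 and its groups overlapped for siRNA 1, with an average difference of 0.28 (SE 0.14, limma adjusted p = 0.769). Tgfb1 differed by 0.11 (SE 0.05).

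Of the 7 receptor genes 4 lay below control. Tgfbr1 differed by -0.13 (SE 0.06) and lay below all controls on all 5 siRNA arrays (2.25% of genes did), and the activin type II receptor gene Acvr2a differed by -0.13 (SE 0.06), both at a limma adjusted p = 0.769. Of the 6 secreted inhibitors and processing enzymes 3 lay below and 3 above, among them the activin-binding Fstl3 at 0.12 (SE 0.07) and Dand5, a relative of Cer1, at 0.03 (SE 0.06).

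All 7 genes for Smads and their partners lay below control with siRNA 1 (median -0.076) and 3 of 7 did so with siRNA 2 (median 0.041), none of them called. Over all genes 41.4% lay below control with siRNA 1 (median 0.016) and 47.1% with siRNA 2 (median 0.006). Smad2, the signal carrier of the pathway, differed by -0.08 (SE 0.06) for the average and Trim33, a Smad-binding protein, by -0.07 (SE 0.05). The 12 intracellular inhibitors and corepressors split 7 below and 5 above, with the ubiquitin ligase gene Nedd4l at -0.08 (SE 0.06) and the homeobox corepressor gene Tgif1 at -0.05 (SE 0.05).

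Of the 10 target genes measured 8 lay below control with siRNA 1 (median -0.053) and 3 with siRNA 2 (median 0.032). The shares of all genes below control were 41.4% and 47.1%. Lhx1, a LIM homeobox gene of the streak and anterior endoderm, read 8.67, 8.56 and 8.67 with control siRNA, 8.40, 8.29 and 8.35 with siRNA 1, and 8.66 and 8.75 with siRNA 2. All siRNA 1 arrays lay below all others, as they did for Cer1 (below all controls for 4.56% of genes). Its difference was -0.29 (SE 0.06, limma adjusted p = 0.805, unadjusted p = 0.00069) with siRNA 1 and 0.07 (SE 0.06) with siRNA 2, and the siRNAs differed by 0.36 (SE 0.06, limma adjusted p = 1). Mixl1 and Hhex also had an unadjusted p under 0.05 between the siRNAs in limma, as did 4.48% of all genes. Mixl1 was 0.31 higher with siRNA 2 (SE 0.12), while Hhex went the other way at -0.25 (SE 0.1). Against control with siRNA 1, Mixl1 stood at -0.15 (SE 0.1) and Hhex at 0.14 (SE 0.09). Gsc, a homeobox gene of the organizer, differed by -0.04 (SE 0.05) for the average.

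**Figure D4:**
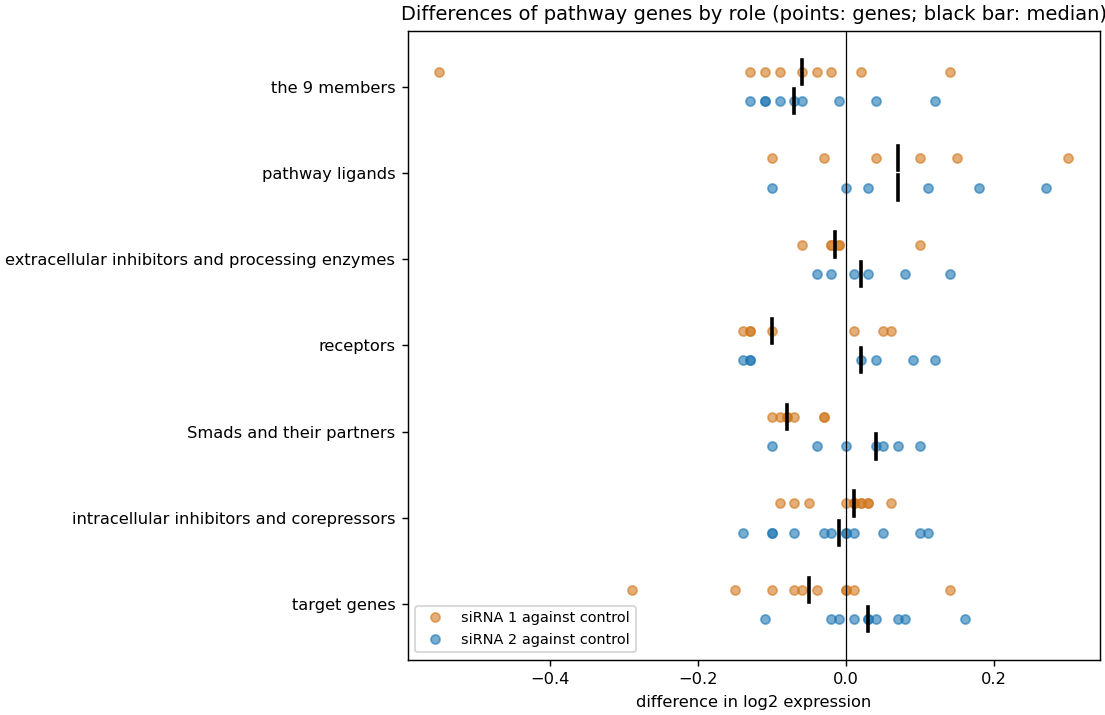
Differences from control siRNA in log2 expression (horizontal axis) for the 9 members and for the 6 lists of other pathway genes (vertical axis), for siRNA 1 and siRNA 2. Points are genes and black bars list medians. Cer1 (-0.55) is the point farthest to the left, followed by the target gene Lhx1 (-0.29), both with siRNA 1, and Inhba (0.30) the farthest to the right.

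Markers of streak and endoderm cells and of fibroblasts were read beside Cer1. The 9 measured primitive streak and mesendoderm markers, which include Lhx1 and other targets above, averaged 8.52 to 8.55 on the control arrays, 8.47 to 8.54 with siRNA 1 and 8.54 to 8.59 with siRNA 2. With siRNA 1, 5 of these 9 lay below control. The 10 primitive and visceral endoderm markers averaged 8.32 to 8.37, 8.39 to 8.43 and 8.34 to 8.39 in the same groups, and 8 of 10 lay above control with siRNA 1, none with an unadjusted p under 0.05, where 41.4% of all genes lay below control. Gata6 read 9.9, 9.42 and 9.38 over siRNA 1 replicates 1, 2 and 3, and Dab2 9.67, 9.13 and 9.32. Of these arrays Pdgfra was also highest on replicate 1. Gata4 lay between, and Afp, Amn, Apoa1, Hnf4a, Sox17 and Sox7 were lowest there. The 9 fibroblast markers, for feeder cells, averaged 8.75 to 8.88, 8.81 to 9.0 and 8.84, with the highest value on siRNA 1 replicate 1, the array where Cer1 was lowest. Markers differed in this. Over siRNA 1 replicates 1, 2 and 3, Postn read 9.27, 8.48 and 8.47 and Dcn 9.39, 8.87 and 8.92, but Col1a1 read 9.52, 9.49 and 9.48. With siRNA 1, 7 of these 9 lay above control, and 3 did not overlap with it on the higher side, as for 6.21% of all genes. The collagen genes Col1a2 (0.19, unadjusted p = 0.0234) and Col1a1 (0.15, unadjusted p = 0.0305) had an unadjusted p under 0.05 in limma, as did 5.33% of all genes. Dcn (-0.17) and Twist1 (-0.09) lay below control. With siRNA 2, where Cer1 differed by -0.09, 6 lay above control and 3 below. Acta2 was highest at 0.23, with Col1a2 at 0.15 and Col1a1 at 0.13. Twist1, at -0.2, was the only fibroblast marker with an unadjusted p under 0.05 there (limma unadjusted p = 0.0166), as for 6.07% of all genes. None of these markers was called. In the first and second lists no marker lay below the lower quartile of every array, and in the fibroblast list 1 did. Some were low all the same, such as Afp at 6.79 to 7.12 and Mesp1 at 7.12 to 7.41, under all array medians (8.12 to 8.20). Without detection calls, their signal over background is unknown. The part of all these markers in the Cer1 values was not tested.

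Cer1 had the largest SD of the 9 members over the 8 arrays, 0.297, and 99.8% of all genes had a smaller one, while the other members had SDs of 0.043 to 0.115. The genes whose profile was nearest to it were Arg2 (an arginase), Tdpoz2, Amot (an angiomotin of cell junctions), Pramel19 and Gpm6b. Nearness was the root mean square difference of log2 values over the 8 arrays after each gene was centred on its own mean, and it was 0.156 for Arg2 and 0.168 for Gpm6b, against 0.293 for the median gene. Amot, for one, read 9.05 to 9.09 with control siRNA, 8.54 to 8.73 with siRNA 1 and 8.86 to 8.97 with siRNA 2, with all siRNA 1 arrays below the rest. Lefty1 was the nearest of the members, at 0.243. These genes were picked for the likeness, and a gene with the same value on every array would stand at 0.278.

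**Figure D5:**
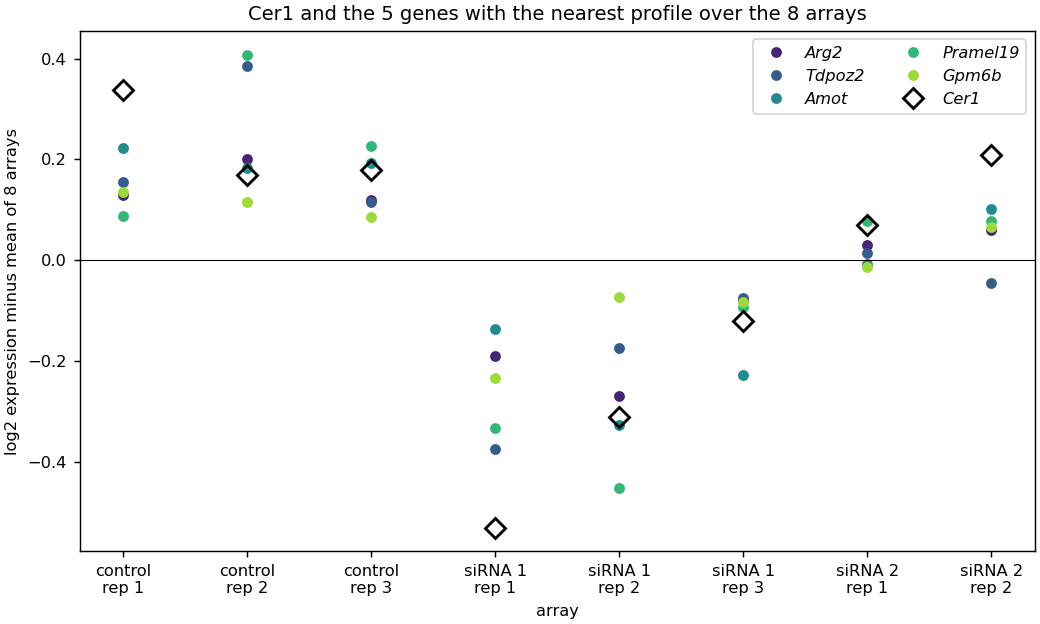
Log2 expression minus the gene's mean over the 8 arrays (vertical axis) for Cer1 and the 5 genes nearest to it, on each array (horizontal axis). All 6 genes lie below 0 on the 3 siRNA 1 arrays and above 0 on the 3 controls.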

How the data were processed

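Total RNA of 8 samples was hybridised to Affymetrix arrays, 1 array a sample. The deposited values are log2 expression per probe set, which the authors made with RMA, as the submitters' processing notes say. Not given in the sources used here are its version, the array library and the genome build. RMA draws the arrays' distributions together, so a shift shared by most genes would not show. Of 28815 probe sets 21780 had 1 gene symbol, 1605 several and 5430 none in the platform annotation used here. A gene was read from whichever of its single-symbol probe sets was brightest on average (19935 genes). Each member had only 1 such probe set.

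Limma 3.58.1 (R 4.3.3) was fitted to all 8 arrays with a term for each group, with eBayes, two-sided p-values and Benjamini-Hochberg adjustment over all genes in each of 4 comparisons. It was tested on simulated data. The ± values are SDs, and SEs and 95% intervals are limma's. Named by rule were the 9 members and the 2 genes of each pathway list whose unadjusted p was smallest for the siRNA average. So were the 5 genes nearest to the member with the largest SD, without predicted genes. Single cell type markers and the targets Mixl1 and Hhex were named without such a rule, with their values known. Members and lists were chosen with earlier results of these data known. Deviations of same-numbered arrays from their group means correlated at -0.547 to 0.219, so numbers were not taken as pairs. The 2 siRNA 2 arrays deviate by equal and opposite amounts. A negative correlation with 1 of them is thus a positive one with the other, and structure shared by differently numbered arrays was not tested. Alternatives were other normalizations, filters, moderation, weights, probe set means, subsets of groups, covariates and leaving out each array. Python 3.11.15 with pandas 2.3.3 and matplotlib 3.10.9 made tables and figures.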

Additional observations from a re-analysis of the deposited data

How the results depend on the processing

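Of the 36 differences of members (9 genes in 4 comparisons) 24 kept their sign in every alternative, among them all 4 of Cer1 and the 3 comparisons of Nodal, Lefty1, Lefty2 and Skil with control. Several alternatives could not move a member's difference, so this count overstates how far signs were tested. Each member has 1 probe set. Moderation, the filter at the median gene and a fit of only the groups compared change p-values alone. So does leaving out an array of a group not compared. The count of members called stayed at 0 except with array weights, which called 2 for siRNA 1. Array weights called 14 genes in all for the siRNA average and 1436 for siRNA 1, and eBayes with trend and robust moderation called 3 between the siRNAs. The cause was not tested. With the replicate number as a block, 0 members and 0 genes were called, as in the main fit. Control and siRNA 1 hold the same replicate numbers, so a block cannot change the difference between them. For Cer1 it stayed at -0.547 (limma adjusted p = 0.999), which is therefore no check of that difference. The filter at the median gene left out Cfc1, and a fit of only the groups compared gives nothing new for the siRNA average.

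Signs turned in 26 of 599 alternative values, some of which could not turn for the reasons above. All were of differences of 0.10 or less, and 14 came on leaving out an array. The cause was not tested. With array weights Gdf3 became 0.008 (siRNA 1), 0.003 (average) and -0.009 (between siRNAs), Lefty1 -0.038 and Skil 0.026 between siRNAs, and Tdgf1 0.021 (siRNA 1). Repeated quantile normalization gave 0.012 for Gdf3 (siRNA 2) and 0.010 for Skil (between siRNAs). Median centring gave -0.001 for Foxh1 (siRNA 1) and 0.014 for Skil (between siRNAs). The lower quartile as a covariate gave -0.009 for Cfc1 and 0.008 for Gdf3 (siRNA 2). Leaving out 1 array at a time gave ranges of -0.044 to 0.132 for Cfc1 and -0.072 to 0.052 for Gdf3 with siRNA 2, -0.022 to 0.077 for Foxh1 with siRNA 1, and -0.057 to 0.005 for Gdf3 with the average. Between siRNAs they were -0.007 to 0.202 for Foxh1, -0.032 to 0.092 for Gdf3, -0.023 to 0.084 for Lefty1, -0.157 to 0.014 for Lefty2, -0.015 to 0.045 for Nodal and -0.087 to 0.073 for Skil. Where this left siRNA 2 with 1 array, that array is assumed to vary like the other groups. No detection calls were used here, so signal over background is unknown for Cfc1, the member with the lowest values.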
